A study of Mus musculus with 6 samples.

Results

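The genes described here encode the cytosolic ribosomal proteins and their close relatives. They were chosen by symbol in the platform annotation (Rpl or Rps followed by a digit, Rplp0 to Rplp2 and Rpsa, with the Rps6 kinases left out), which gave 65 of 19057 genes. Of these, 56 were canonical ribosomal protein genes, 23 for the small subunit, 30 for the large subunit and 3 for its stalk. A further 7 were paralogs of canonical genes (Rps4l, Rpl3l, Rpl7l1, Rpl22l1, Rpl36al, Rpl39l and Rps27l). The last 2 fitted neither class: Rps19bp1, which encodes a binding partner of the Rps19 protein, and Rps23rg1, a retrogene of Rps23.

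Expression was measured on 6 Illumina bead arrays of total heart RNA from FVB mice. Of the JMJD2A-transgenic hearts, 2 arrays were from mice with thoracic aortic constriction (TAC), surgery that narrows the aorta so that the left ventricle pumps against a higher pressure, and 1 was from a sham-operated mouse or pool. Of the wild-type hearts, 2 arrays were TAC and 1 was sham. The transgene is heart-specific per the series title and carries JMJD2A, which the gene Kdm4a encodes and which removes methyl groups from histone lysines; for its promoter and the species of its sequence the sources used here give nothing. Hearts were collected 3 weeks after surgery, and the age is given as 8 weeks in the labels but in years in the design text. The labels do not say whether an array holds 1 animal or a pool, so each p-value measures spread between arrays that may in part be technical.

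Ribosomal proteins coat and stabilise the ribosomal RNA of both subunits, and their genes are among the most highly expressed in any cell. Their messengers begin with a run of pyrimidines, the terminal oligopyrimidine (TOP) motif, through which the kinase mTOR and the binding protein LARP1 control their translation as a group. The supply of ribosomes rises when heart muscle cells enlarge under load. Striated muscle is known for a tissue-specific swap in the large subunit, in which Rpl3l partly replaces Rpl3.

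Start sites are shown because the pyrimidine run is a feature of these genes that the choice by symbol did not use. RefSeq promoters (GRCm38.p6) were found for 46 of the 56 canonical genes and for 6 of the 7 paralogs. A run of at least 6 bases of C or T, on the gene's strand and beginning between 10 bases before and 15 bases after the annotated start, was present at 27 of 54 canonical starts (50%), at 2 of 8 paralog starts (25%) and at 26.6% of all 32851 starts. The letters CCGGAAG, searched on both strands of the 300 bases around the start, were present at 22 canonical starts (40.7%), at 2 paralog starts (25%) and at 8.9% of all starts. In the 50-base windows below, which run from 30 bases before the start, the longest such run is in capitals. Rps6 and Rpl38 represent canonical genes with a run, Rps19 a canonical gene and Rpl3l the muscle paralog, both with no such run at the start shown.
Rps6, chr4:86857348-86857397, minus strand: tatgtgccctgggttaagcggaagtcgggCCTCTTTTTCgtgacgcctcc
Rpl38, chr11:114668550-114668599, plus strand: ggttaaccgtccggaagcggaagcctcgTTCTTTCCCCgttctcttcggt
Rps19, chr7:24884562-24884611, plus strand: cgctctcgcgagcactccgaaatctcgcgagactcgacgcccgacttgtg
Rpl3l, chr17:24727796-24727845, plus strand: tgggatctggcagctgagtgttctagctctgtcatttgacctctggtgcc

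Array-wide features that touch these genes were as follows. All values are log2 of the deposited intensity of a gene's brightest probe, and a gene was tested when its mean lay above 5.88, an intensity of 58.7; 11167 genes passed, 57 of the 65 ribosomal ones among them. Differences are log2 values from limma with their standard errors (SE), and a gene was called at an adjusted p under 0.05 (Benjamini-Hochberg over all 11167 genes). Kdm4a itself did not differ by its tested probe (0.01 ± 0.12, adjusted p = 0.994); a second probe read 6.32 to 7.03 in transgenic and 6.40 to 6.49 in wild-type arrays, and since the sources used here do not place the probes relative to the transgene, neither probe checks the labels. Xist, the RNA of the silenced X chromosome, was low in transgenic sham (5.41) and wild-type TAC 2 (5.38) and between 10.36 and 11.03 on the other 4 arrays. Sex, which the labels do not give, may therefore differ within groups, and the main results below are also given without both of those arrays. All 9 measured cardiomyocyte markers lay above the filter, with summed intensities of 116700 to 127000 in transgenic and 116600 to 118400 in wild-type arrays. Of these, 6 were higher and 3 lower in transgenic hearts (median 0.0437), with none called. Pln (0.37 ± 0.14) was higher and Ryr2 (-0.28 ± 0.11) lower at an unadjusted p under 0.05 by limma, each with overlapping genotypes. At that p 5.65% of all tested genes were higher and 5.89% lower.

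The canonical ribosomal protein genes were among the brightest on the arrays. The 51 tested ones had mean log2 levels between 5.96 for Rpsa, which also encodes the laminin receptor, and 14.63 for Rplp1, an acidic stalk protein. Their median was 12.71, with 35 of the 51 above 12, and 21 of the 191 genes in the top 1% of brightness were canonical ribosomal protein genes. Rplp1 read 14.66, 14.59 and 14.54 in transgenic TAC 1, transgenic TAC 2 and transgenic sham, against 14.66 on each of the 3 wild-type arrays. The value of 14.66 is the highest on any array, so Rplp1 sat at the ceiling of the scale on 4 arrays and a rise there could not have been seen. Intensities of different probes reflect probe chemistry as well as messenger abundance, so this order is one of brightness.

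Most canonical genes varied little between arrays. The SD over the 6 arrays was 0.036 to 0.387 with a median of 0.102. It was under 0.1 for 25 genes and over 0.2 for 8. Besides Rplp1, other genes lay close to the highest value of 14.66, where a rise had little room. Among them were Rps29, Rpl41 and Rps24, with means of 14.56, 14.49 and 14.39 and SDs of 0.037, 0.051 and 0.054. The highest SD belonged to Rpl7a, a large subunit protein, with 9.39, 8.72 and 9.63 in transgenic TAC 1, transgenic TAC 2 and transgenic sham, against 8.65, 9.09 and 9.33 in wild-type TAC 1, wild-type TAC 2 and wild-type sham. Its groups overlapped in both genotype and surgery. Another 5 canonical genes (Rps20, Rps23, Rpl6, Rpl14 and Rpl17) had mean levels of 5.27 to 5.72, below the filter, and were not tested; nor were Rpl22l1 (5.61), Rpl39l (5.55) and Rps23rg1 (5.71). Members of the list with more than 1 probe numbered 22, and 14 had more than 1 probe above the filter.

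**Figure D1:**
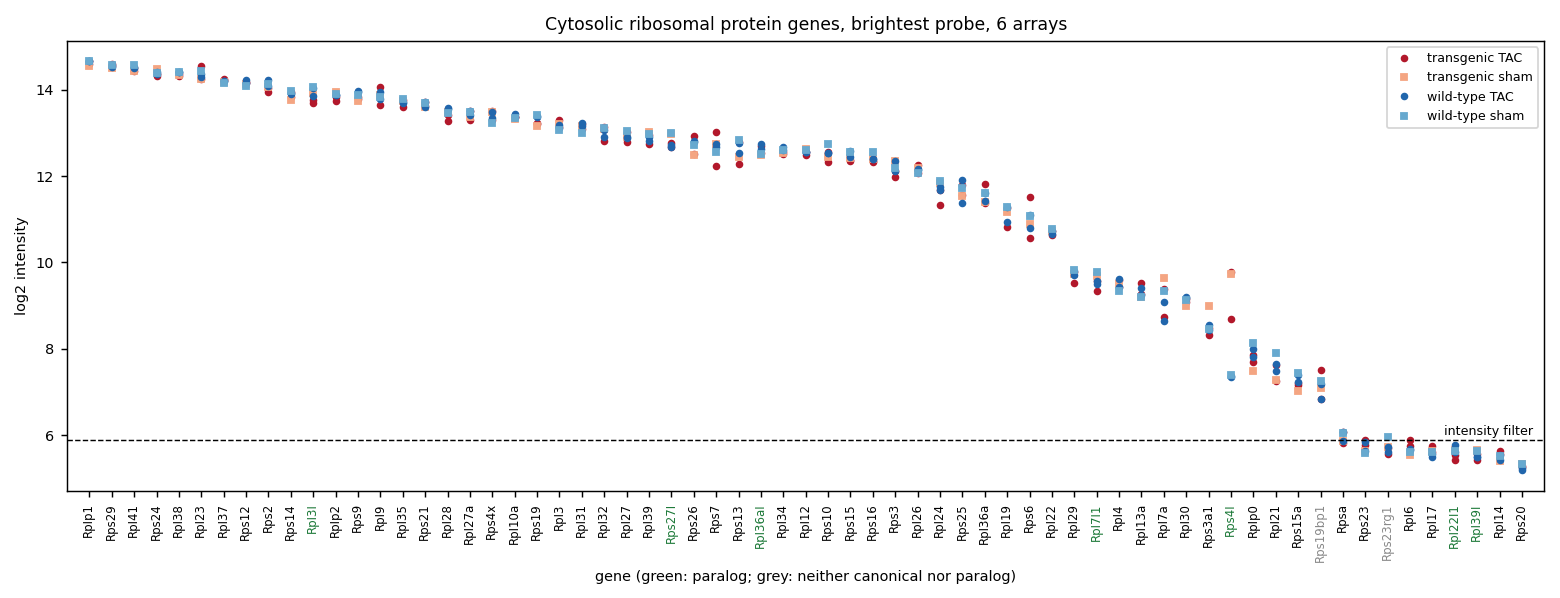
Log2 intensity of the brightest probe of each of the 65 genes on each of the 6 arrays (1 point per array), ordered by mean level, with the intensity filter as a dashed line. Most canonical genes lie above 12 with the arrays close together, whereas the paralog Rps4l lies at 8.68 to 9.79 in transgenic and 7.33 to 7.40 in wild-type arrays.

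Transgenic against wild-type hearts, over both surgeries, was the first comparison, and it asks what differed with the demethylase transgene. No canonical ribosomal protein gene was called, and 1 paralog, Rps4l, rose 4.11-fold. The canonical genes lay slightly lower in transgenic hearts, 39 of 51 below 0 with a median difference of -0.034, beside a median of -0.0104 over all tested genes, of which 5857 of 11167 were lower. The call for Rps4l makes 1 of 57 tested ribosomal genes, against a background of 0.949% of all tested genes called. The canonical differences ran from -0.29 to 0.22, a largest fold of 1.23, with SEs of 0.074 to 0.222, and their smallest adjusted p was 0.423. At an unadjusted p under 0.05 there were 0 higher and 1 lower, against 5.65% and 5.89% of all tested genes.

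By subunit, 18 of 21 small subunit genes were lower with a median of -0.0663, 18 of 27 large subunit genes with a median of -0.0225, and 3 of 3 stalk genes. The stalk gene Rplp1 sat at the ceiling of 14.66 on every wild-type array, so a higher transgenic value could not have been seen. Its place among the lower canonical genes therefore carries no information on direction. The 3 transgenic arrays lay entirely below the 3 wild-type arrays for 8 of the 51 canonical genes (15.7%), where 8.55% of all tested genes did so; for 0 they lay entirely above, where 7.59% of all tested genes did. These 8, none of which passed the test, were Rps2, Rps9, Rps15, Rps15a, Rps16, Rps19, Rpl34 and Rpl38. Rps2, Rps9 and Rpl38 have a second probe above the filter, and by that probe the genotypes overlapped (differences of -0.07, -0.10 and -0.06). The count lower among the 51 ranged from 32 without transgenic TAC 1 to 40 without either sham array. It was 37 without both arrays of low Xist. Because these are bulk hearts, fewer cells of a type and less RNA per cell cannot be told apart. Markers of other heart cells also leaned one way: 6 of 6 fibroblast markers (median 0.1265) and 6 of 6 macrophage markers (0.2357) were higher in transgenic hearts and 4 of 5 endothelial markers (-0.2259) lower, with none called and overlapping sums of intensity between the genotypes. Those sums were 17700 to 24930 in transgenic and 15980 to 23360 in wild-type arrays for fibroblasts, and 3311 to 4625 in transgenic and 2372 to 3498 in wild-type arrays for macrophages. Their part in the canonical values was not tested.

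Rps19, a small subunit protein mutated in Diamond-Blackfan anaemia, was the canonical gene with the smallest p. It read 13.20, 13.23 and 13.17 in transgenic TAC 1, transgenic TAC 2 and transgenic sham, against 13.40, 13.37 and 13.42 in wild-type TAC 1, wild-type TAC 2 and wild-type sham. All 3 transgenic arrays were below all 3 wild-type arrays, and the arrays within each genotype lay close together. The difference was -0.20 ± 0.09 (3 against 3 arrays, unadjusted p = 0.0467, adjusted p = 0.423 by limma). Without both arrays of low Xist, Rps19 stood at -0.19 ± 0.20.

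Rplp0, the base of the stalk that recruits elongation factors, had the largest negative difference among canonical genes. It read 7.70, 7.87 and 7.49 in transgenic TAC 1, transgenic TAC 2 and transgenic sham, against 7.80, 8.00 and 8.14 in wild-type TAC 1, wild-type TAC 2 and wild-type sham. The lowest value was transgenic sham and the highest wild-type sham, while the TAC arrays of the genotypes overlapped. The difference was -0.29 ± 0.17 (adjusted p = 0.570 by limma). Next came Rpl21 at -0.29 ± 0.17, Rps15a at -0.22 ± 0.14, Rps13 at -0.20 ± 0.15 and Rps10 at -0.16 ± 0.11, with adjusted p between 0.588 and 0.670. Single arrays moved these values by over 1.5 times. Without either sham array Rplp0 stood at -0.12, Rpl21 at -0.13, Rps15a at -0.12, Rps13 at -0.11 and Rps10 at -0.09. Without transgenic TAC 2 Rpl21 stood at -0.45, Rps13 at -0.08 and Rps10 at -0.25, and without transgenic TAC 1 Rps13 stood at -0.37. By their other probes above the filter, with all arrays, Rpl21 stood at -0.26 and -0.18 and Rps13 at 0.06, opposite in sign.

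Among canonical genes with positive differences, Rpl7a stood at 0.22 ± 0.20 and Rps3a1 at 0.12 ± 0.17. Rpl3, which shapes the peptidyl transferase centre and is the partner of Rpl3l, stood at 0.10 ± 0.09. Rps4x, the X-linked partner of Rps4l, stood at 0.08 ± 0.11, Rpl26 at 0.05 ± 0.10 and Rpl4, which lines the exit tunnel, at 0.05 ± 0.14. In each of these 6 the arrays of the genotypes overlapped, and the adjusted p was at least 0.738. Single arrays moved them as well: Rpl7a ranged from 0.05 without transgenic TAC 1 to 0.42 without transgenic TAC 2, and was 0.36 when wild-type TAC 2 was dropped and 0.11 when wild-type TAC 1 was. Without either sham array Rps3a1 turned to -0.09 and Rps4x to -0.02. With 1 array left out Rpl3 ranged from 0.06 to 0.15, Rpl26 from 0.02 to 0.11 and Rpl4 from -0.0046 to 0.12. Rps6, the substrate of the S6 kinases, read 11.50, 10.56 and 10.89 in transgenic TAC 1, transgenic TAC 2 and transgenic sham, against 11.09, 10.80 and 11.08 in wild-type TAC 1, wild-type TAC 2 and wild-type sham. Both the highest and the lowest value were transgenic TAC arrays. Rpsa read 5.82 to 6.08 in transgenic and 5.85 to 6.08 in wild-type arrays, close to the filter of 5.88.

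**Figure D2:**
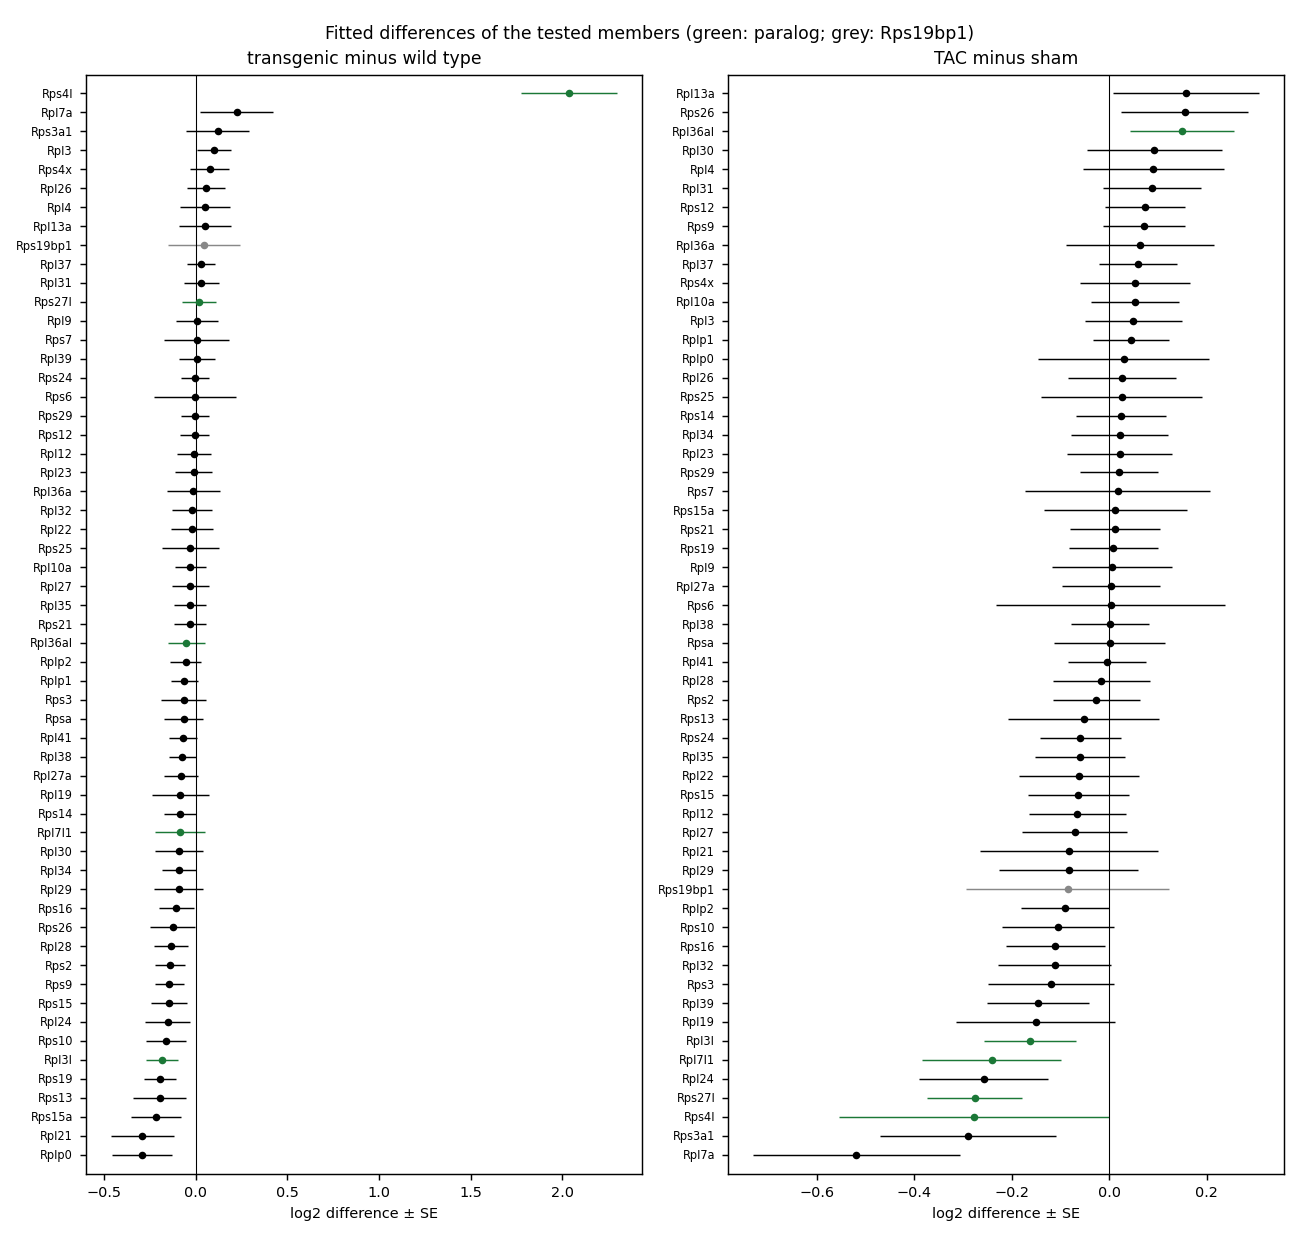
Fitted log2 difference with its SE for each of the 57 tested genes, transgenic minus wild type on the left and TAC minus sham on the right, each ordered by size; the axes of the panels differ in scale. On the left Rps4l stands alone at 2.04, with the other 56 genes between -0.29 and 0.22, and on the right the differences run from -0.52 to 0.16.

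Rps4l was the exception. This autosomal relative of Rps4x is listed by RefSeq as a transcribed pseudogene on chromosome 6, inside the gene Tmtc1. It read 9.79, 8.68 and 9.74 in transgenic TAC 1, transgenic TAC 2 and transgenic sham, against 7.33, 7.36 and 7.40 in wild-type TAC 1, wild-type TAC 2 and wild-type sham. In intensity this was 883, 410 and 855 in the transgenic arrays, against 161, 164 and 168 in the wild-type arrays in the same order. The genotypes did not overlap, the wild-type arrays lay within 0.07 of each other, and transgenic TAC 2 stood well below the other transgenic arrays. The means were 9.40 ± 0.63 in transgenic and 7.36 ± 0.03 in wild-type hearts (SD, n = 3 arrays each). The difference was 2.04 ± 0.26 (unadjusted p = 2.43e-05, adjusted p = 0.0086 by limma), the seventh largest by size among all tested genes.

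Rps4x, its partner, read 13.51, 13.29 and 13.49 in transgenic TAC 1, transgenic TAC 2 and transgenic sham, against 13.49, 13.35 and 13.23 in wild-type TAC 1, wild-type TAC 2 and wild-type sham, so its genotypes overlapped. Rps4l minus Rps4x was -3.72, -4.61 and -3.75 in the transgenic arrays, against -6.16, -5.99 and -5.83 in the wild-type arrays. The genotypes did not overlap in this quantity and differed by 1.96, with p = 0.1 in a two-sided exact permutation test, the smallest p that 3 against 3 arrays allow (adjusted p = 0.534 over 6 paralog comparisons). That test was added after the values were seen. Whether the single Rps4l probe also hybridises to other copies of the Rps4 sequence was not tested.

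Genes next to Rps4l on chromosome 6 were read out, in a window chosen after the values were seen. Tmtc1, which contains Rps4l, read 7.17, 6.64 and 7.23 in transgenic TAC 1, transgenic TAC 2 and transgenic sham, against 7.03, 7.13 and 6.97 in wild-type TAC 1, wild-type TAC 2 and wild-type sham. Its difference was -0.03 ± 0.17 (adjusted p = 0.971 by limma), with overlapping genotypes. Among the neighbours on either side, Ccdc91 stood at 0.08 ± 0.13, Ergic2 at 0.15 ± 0.15 and Ipo8 at 0.05 ± 0.14, all with adjusted p of at least 0.777. Far2, Caprin2 and Sinhcaf lay below the filter.

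Rps4l lost its call when any of 4 arrays was left out. Its adjusted p was 0.110 when transgenic sham was dropped, 0.106 when wild-type sham was, 0.0607 after dropping wild-type TAC 1 and 0.0648 after dropping wild-type TAC 2, with differences of 1.89 to 2.09. Without transgenic TAC 1 it was 0.00598 and without transgenic TAC 2 it was 5.22e-05. Without both arrays of low Xist the Rps4l difference was 1.90 ± 0.49 (adjusted p = 0.923 by limma). With Xist as a covariate it was 2.05 ± 0.28 (adjusted p = 0.0272 by limma). In these fits 0 and 54 of all tested genes were called. The skeletal muscle markers also differed with genotype: their summed intensity over 9 measured markers was 19030 to 22580 in transgenic and 11340 to 13240 in wild-type arrays. Nearly all of it was Myl1, a myosin light chain, at 18523 to 22104 in transgenic and 10772 to 12678 in wild-type arrays, which passed the test (adjusted p = 0.00857 by limma); the other 8 markers summed to 476 to 521 in transgenic and 547 to 568 in wild-type arrays. Their part in the Rps4l result was not tested.

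Within the surgery groups, Rps4l had the same direction. Among TAC arrays its difference was 1.89 ± 0.34 (2 against 2 arrays, adjusted p = 0.111 by limma), and 0 ribosomal genes were called there, against a background of 0.206%; at an unadjusted p under 0.05 there was 1, Rps4l, against 5.76% of all tested genes. Between the sham arrays, which have no replicates, it was 2.34, the single ribosomal gene with a difference of 1 or more in size, where 1.04% of all tested genes had one. Among TAC arrays the canonical genes were lower in 40 of 51 with a median of -0.0401, beside 5675 of 11167 tested genes lower and a median of -0.0035. Between the sham arrays they were lower in 34 of 51, beside 52.8% of all tested genes, and ran from -0.65 for Rplp0 to 0.54 for Rps3a1. Xist was low in transgenic sham (5.41) but not in wild-type sham (10.50). In the sham pair genotype therefore cannot be told apart from the Xist level, for Rps4l as for the canonical genes.

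**Figure D3:**
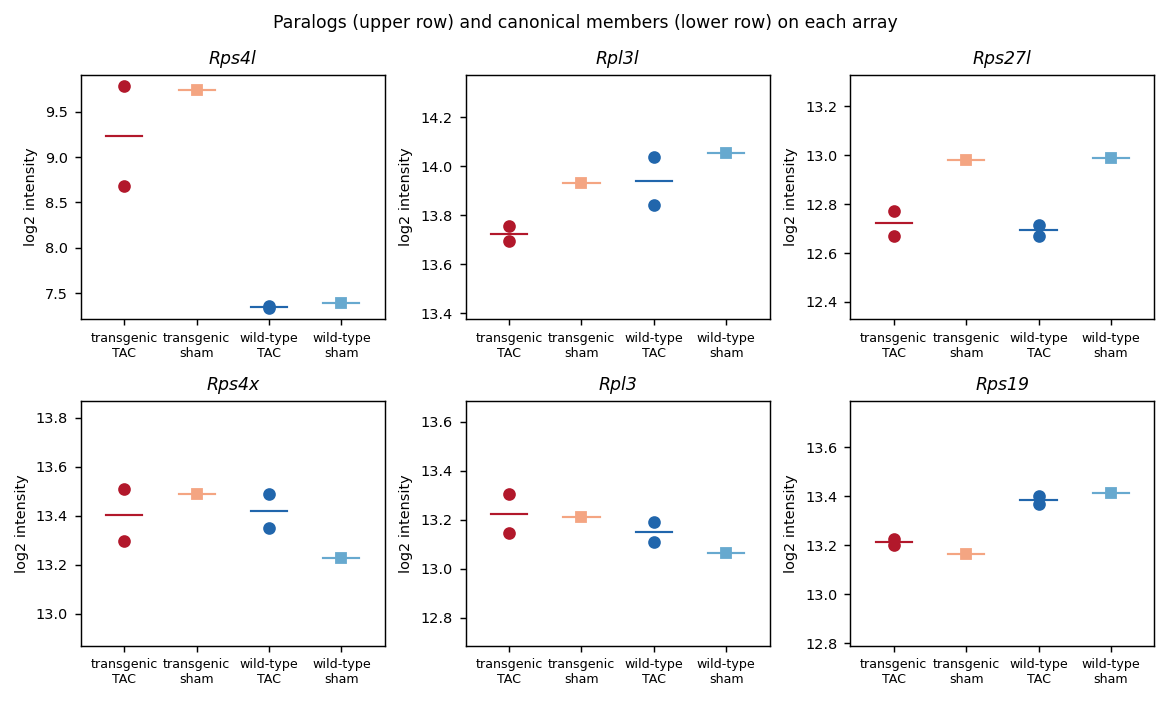
Log2 intensity of 3 paralogs (Rps4l, Rpl3l and Rps27l) above 3 canonical genes (Rps4x, Rpl3 and Rps19) by group, 1 point per array with a line at the group mean; the panels have different axes. Rps4l and Rps19 separate the genotypes without overlap, by 2.04 and -0.20, and Rps27l separates TAC from sham without overlap, by -0.28.

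None of the other 4 tested paralogs was called between genotypes. Rpl3l, the striated muscle relative of Rpl3, was bright on all arrays, with a mean of 13.89. It read 13.75, 13.69 and 13.93 in transgenic TAC 1, transgenic TAC 2 and transgenic sham, against 13.84, 14.04 and 14.06 in wild-type TAC 1, wild-type TAC 2 and wild-type sham. Both transgenic TAC arrays were below every wild-type array, but transgenic sham lay above wild-type TAC 1. The difference was -0.18 ± 0.09 (adjusted p = 0.474 by limma).

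Rpl3 itself read 13.14, 13.31 and 13.21 in transgenic TAC 1, transgenic TAC 2 and transgenic sham, against 13.19, 13.11 and 13.07 in wild-type TAC 1, wild-type TAC 2 and wild-type sham. Rpl3l minus Rpl3 averaged 0.57 in transgenic and 0.86 in wild-type hearts, a difference of -0.28 (exact permutation p = 0.2, adjusted p = 0.534, two-sided), and the genotypes overlapped in it. Rpl36al, a retrocopy of the X-linked Rpl36a, stood at -0.05 ± 0.10, and Rpl7l1, a relative of Rpl7, at -0.09 ± 0.13. Rps27l, known in human cells as a p53 target, stood at 0.02 ± 0.09. Rpl36al minus Rpl36a differed by -0.04 between the genotypes (exact permutation p = 0.8). Rpl22 and Rpl39, the partners of the dim Rpl22l1 and Rpl39l, read 10.64 to 10.73 and 12.74 to 13.01 in transgenic arrays, against 10.66 to 10.77 and 12.81 to 12.97 in wild-type arrays.

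TAC against sham, over both genotypes, asks what pressure load changed. No ribosomal gene was called (0 of 57), and 1 of 11167 tested genes was, a background of 0.00895%. Of the 51 canonical genes 29 were higher and 22 lower, with a median of 0.0034 beside -0.0058 over all tested genes, and 48 of them lay within 0.2 of 0. With each array centred on its median, and also without both arrays of low Xist, 22 were higher and 29 lower, so the canonical genes had no stable direction after TAC. At an unadjusted p under 0.05 there were 0 ribosomal genes higher and 2 lower, Rps27l and Rpl7a, where 4.76% of all tested genes were higher and 4.50% lower. The 4 TAC arrays lay entirely above both sham arrays for 5 of the 57 and entirely below for 7, against 8.39% and 8.16% of all tested genes. Beside this, 6 of 6 fibroblast markers were higher after TAC (median 0.4328), 5 of them with no overlap and none called, and their summed intensity was 18400 to 24930 in TAC and 15980 to 17700 in sham arrays. All 5 tested endothelial markers were higher as well (median 0.2276), and 5 of 6 macrophage markers (0.1485), with none called. Of 9 cardiomyocyte markers 5 were higher and 4 lower (median 0.0234), also with none called. Ryr2 (-0.42 ± 0.11), Pln (-0.46 ± 0.14) and Tnni3 (-0.28 ± 0.12) were the 3 lower at an unadjusted p under 0.05 by limma, and 0 were higher. The part of these cell-type markers in the ribosomal values was not tested.

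Rps27l had the smallest p of the ribosomal genes for surgery. It read 12.77 and 12.67 in transgenic TAC and 12.67 and 12.71 in wild-type TAC arrays, against 12.98 in transgenic sham and 12.99 in wild-type sham. Every TAC array lay below both sham arrays, with the sham arrays almost equal. The difference was -0.28 ± 0.10 (4 against 2 arrays, unadjusted p = 0.0198, adjusted p = 0.440 by limma), and it did not pass; without both arrays of low Xist Rps27l stood at -0.32 ± 0.25. Rpl7l1 stood at -0.24 ± 0.14, also with no overlap, and Rpl3l at -0.16 ± 0.09 with overlap. By the second Rpl7l1 probe above the filter the difference was -0.23, and TAC and sham arrays overlapped. Of the 5 tested paralogs 4 were lower after TAC, among them Rps4l at -0.28 ± 0.28, and Rpl36al was higher at 0.15 ± 0.11. The Rps4l value rested on single arrays: it was -0.0072 without transgenic TAC 2, -0.05 without transgenic sham, -0.48 without transgenic TAC 1 and -0.51 without wild-type sham.

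Among canonical genes Rpl7a had the largest difference, -0.52 ± 0.21 (unadjusted p = 0.0367, adjusted p = 0.504 by limma), on the values given above, with overlapping groups. Rps3a1 followed at -0.29 ± 0.18. Rpl24, whose mutation causes the mouse Belly spot and tail phenotype, read 11.68 and 11.33 in transgenic TAC and 11.75 and 11.66 in wild-type TAC arrays, against 11.83 in transgenic sham and 11.89 in wild-type sham. Its TAC arrays all lay below the sham arrays, at -0.26 ± 0.13 (adjusted p = 0.593 by limma). Rpl19 at -0.15 ± 0.16, Rpl39 at -0.15 ± 0.11 and Rps3 at -0.12 ± 0.13 completed the 6 lowest. The 6 highest were Rpl13a (0.16 ± 0.15), Rps26 (0.15 ± 0.13), Rpl30, Rpl4 and Rpl31 (0.09 each) and Rps12 (0.07 ± 0.08). This order is by the brightest probe. By other probes above the filter Rps3 stood at -0.33, Rpl31 at 0.19 and 0.11, Rps12 at 0.0092 and Rpl30 at -0.05, opposite in sign. Without transgenic sham Rps3a1 stood at 0.02, Rps3 at 0.06, Rpl31 at 0.19, Rps26 at 0.07, Rpl4 at 0.17 and Rpl30 at 0.06. Without wild-type sham Rps3a1 stood at -0.60, Rps3 at -0.30, Rpl31 at -0.02, Rps26 at 0.24, Rpl4 at 0.0063 and Rps12 at 0.04. Rpl19 ranged from -0.25 to -0.06, Rpl39 from -0.19 to -0.10 and Rpl13a from 0.10 to 0.21 with an array left out.

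The response to TAC was then taken within each genotype and compared between genotypes; with 1 array per sham group, the spread of the TAC pairs had to stand for it. Within transgenic hearts 0 of 57 ribosomal genes were called by limma, and Rps3a1 alone had an unadjusted p under 0.05, where 4.86% of all tested genes did. It read 8.31 and 8.48 in transgenic TAC arrays, against 9.0 in transgenic sham, a difference of -0.60 ± 0.25 (unadjusted p = 0.0415, adjusted p = 0.991 by limma). In wild-type hearts it read 8.44 and 8.54 in TAC, against 8.46 in sham, so the transgenic sham array stood apart. Transgenic sham is also 1 of the arrays of low Xist, and in transgenic hearts the Xist level cannot be told apart from surgery.

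Within wild-type hearts 0 of 57 were called by limma, and 0 had an unadjusted p under 0.05, where 3.56% of all tested genes did. None of the 11167 tested genes was called within either genotype (background 0%). The canonical median was 0.0081 within transgenic and -0.0311 within wild-type hearts. The difference of the TAC responses gave 0 calls and 0 unadjusted p under 0.05 among ribosomal genes by limma, where 0% and 1.64% of all tested genes had them. It ran from -0.63 ± 0.35 for Rps3a1 to 0.53 ± 0.36 for Rplp0 among canonical genes, with SEs of 0.172 to 0.501, and stood at -0.46 ± 0.59 for Rps4l (adjusted p = 1.00).

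Replicate arrays differed more in transgenic than in wild-type TAC hearts. The median absolute difference between TAC 1 and TAC 2 over the 51 canonical genes was 0.162 in transgenic and 0.0766 in wild-type arrays. It was 0.218 and 0.140 over all tested genes and 0.212 and 0.120 over the brightest 10% of them. The wider transgenic spread was therefore not particular to ribosomal genes. The transgenic pair differed more for 38 of the 51. Differences over 0.4 occurred for 8 canonical genes in the transgenic pair and for 2 in the wild-type pair. In transgenic hearts TAC 1 was above TAC 2 by 0.94 for Rps6, 0.77 for Rps7, 0.66 for Rpl7a, 0.49 for Rps13 and 0.41 for Rpl9, while the same difference was -0.45 for Rpl19, -0.43 for Rpl36a and -0.41 for Rps26. Rps7 read 13.02 and 12.24 in transgenic TAC 1 and TAC 2, against 12.74 and 12.67 in wild-type TAC 1 and TAC 2, so the transgenic TAC pair held both the highest and the lowest of the TAC values. In wild-type hearts the 2 genes were Rps25 at 0.54 and Rpl7a at -0.43.

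**Figure D4:**
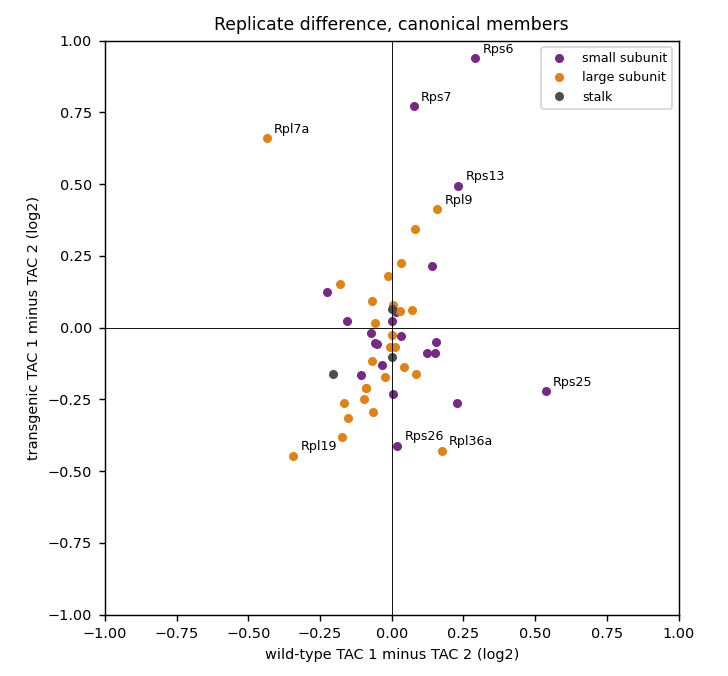
Log2 difference between replicate TAC arrays (TAC 1 minus TAC 2) of the 51 tested canonical genes, transgenic on the vertical and wild type on the horizontal axis, with 1 point per gene coloured by subunit. The points spread further along the transgenic axis, where Rps6 reaches 0.94, than along the wild-type axis, where Rps25 reaches 0.54.

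The rest of the ribosome pathway was read out beside the ribosomal proteins from 3 lists, of ribosome biogenesis factors, of translation genes with TOP messengers, and of the mTOR pathway. No gene of any list was called by limma between genotypes (0 of 44, 0 of 15 and 0 of 19 tested; unadjusted p under 0.05 for 5, 2 and 2), where 0.949% of all tested genes were called and 5.65% were higher and 5.89% lower at that unadjusted p, so these counts are near the background. In transgenic hearts 30 of 44 biogenesis genes were higher, with a median of 0.0278, as were 10 of 15 TOP genes (0.067) and 11 of 19 mTOR genes (0.0265), beside 47.6% of all tested genes. Among TAC arrays alone the TOP genes leaned the other way, with 5 of 15 higher (median -0.0092). There 27 of 44 biogenesis genes (0.043) and 10 of 19 mTOR genes (0.0651) were higher, beside 49.2% of all tested genes.

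Npm1, the nucleolar chaperone nucleophosmin, read 12.70, 12.40 and 12.57 in transgenic TAC 1, transgenic TAC 2 and transgenic sham, against 12.13, 12.13 and 11.95 in wild-type TAC 1, wild-type TAC 2 and wild-type sham. All transgenic arrays lay above all wild-type arrays, at 0.49 ± 0.11 (adjusted p = 0.110 by limma). Polr1a, the largest subunit of the polymerase that transcribes ribosomal RNA, read 10.36, 10.43 and 10.54 in transgenic arrays, against 10.69, 10.89 and 11.15 in wild-type arrays in the same order. Its transgenic arrays all lay below the wild-type ones, at -0.47 ± 0.13 (adjusted p = 0.154 by limma). Rrp12 (0.44 ± 0.14), a ribosome export factor, and Nop58 (0.39 ± 0.14), a core protein of the particles that methylate ribosomal RNA, had adjusted p of 0.225 and 0.306.

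Among TOP genes, Eif3f, a subunit of an initiation factor, stood at -0.30 ± 0.09 without overlap (adjusted p = 0.20 by limma) and the helicase gene Eif4a2 at 0.27 ± 0.09. The elongation factor genes Eef1a1 and Eef1g stood at 0.18 and -0.15. Among mTOR genes, Mlst8, a subunit of both mTOR complexes, read 9.65, 9.61 and 9.5 in transgenic arrays, against 10.06, 10.03 and 9.94 in wild-type arrays, at -0.42 ± 0.12 (adjusted p = 0.20 by limma). Rheb, the activator of mTOR, stood at 0.48 ± 0.20, Tsc1 at -0.29 and Mtor at -0.26 ± 0.14.

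After TAC, 0 genes of the 3 lists were called by limma (unadjusted p under 0.05 for 3 biogenesis, 1 TOP and 0 mTOR genes), where 0.00895% of all tested genes were called and 4.76% were higher and 4.50% lower at that unadjusted p. Biogenesis genes were higher in 19 of 44, TOP genes in 9 of 15 and mTOR genes in 11 of 19, with medians of -0.0155, 0.0142 and 0.0166. The largest among the named ones were Rrn3, an initiation factor for ribosomal RNA transcription, at -0.55 ± 0.20, and Rrp12 at 0.48 ± 0.14 (adjusted p = 0.441 and 0.381 by limma). Emg1 stood at -0.34 ± 0.15, Nap1l1 at 0.27, Eif4a2 at -0.25, Sesn1 at -0.22 and Eif4ebp1, the translation repressor inhibited by mTOR, at 0.21.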

How the data were processed

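Per the labels' protocols, total heart RNA was isolated with Trizol, cleared of DNA with DNase I, controlled by Bioanalyzer and turned into biotin-labelled cRNA for 6 Illumina arrays. The deposited values are intensities on a linear scale, 1 per probe and array; the array medians of 56.3 to 56.4 and sorted columns within 0.0064 (log2) of their mean are the pattern of quantile normalization, while the sources used here name neither the authors' software nor their background correction. That normalization was kept, a floor of 32 replaced 12 lower values, and analysis was on log2. Without background subtraction, folds of dim genes are understated, and the number of arrays limits the precision.

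Of 45281 probes, 34885 had 1 symbol in the platform annotation, 18 several and 10378 none. Symbols were updated through a RefSeq gene table of GRCm38.p6, used for names and gene order; no ribosomal symbol changed. Each gene was represented by its brightest probe, and genes above the 50th percentile of the 34885 probes were tested.

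Linear models were fitted in limma 3.58.1 (R 4.3.3) with lmFit, and eBayes was run with its intensity trend. A model of surgery plus genotype (3 residual and 6.14 prior degrees of freedom) gave the overall comparisons, and 4 group means (2 and 6.25) gave the rest. The steps were tested on simulated data. Exact permutation tests used scipy 1.17.1. The members, gene lists, naming rule (all paralogs and their partners, Rps6, Rpsa, Rplp0, the 6 largest differences each way and the 4 smallest p per list) and alternatives were chosen with earlier results of these data known. Alternatives covered the filter, probe choice, trend, centring, background, floor, Xist, the replicate numbers and each array left out.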

Additional observations from a re-analysis of the deposited data

How the results depend on the processing

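Between genotypes the count of ribosomal genes past the test, 1, ranged from 0 to 1 with an array left out. Calls over all tested genes, 106, ranged from 24 to 473 in the same settings. Without both arrays of low Xist, where 4 arrays remain, both counts were 0. The median difference of the 57 tested genes ranged from -0.063 to -0.0401 with an array left out, beside -0.034. Among TAC arrays the count, 0, was 1 (Rps4l) without the intensity filter and ranged from 0 to 1 with an array left out, and the median, -0.0401, ranged from -0.0641 to -0.0401. The labels do not say that the numbers 1 and 2 of the TAC arrays mark a shared batch, and the TAC 1 minus TAC 2 differences of the genotypes correlated at -0.029 over all tested genes and at 0.167 over the 51 canonical ones, so the samples were not treated as paired. With the replicate number as a block the count among TAC arrays was 1, with Rps4l at adjusted p = 0.0141, and the other counts did not change. For TAC against sham the median, 0.0016, ranged from -0.0413 to 0.013 with an array left out, was -0.0341 with Xist as a covariate and -0.029 without both arrays of low Xist. Within transgenic hearts the count, 0, ranged from 0 to 1 with an array left out (Rps4l without transgenic TAC 1, 1 array against 1), and the median, 0.0075, ranged from 0 to 0.0271; it was -0.0107 by the median over probes, -0.0131 with centred arrays and -0.0251 with Xist as a covariate. The median difference of the TAC responses, 0.013, ranged from -0.0136 to 0.0338 with an array left out and was -0.0101 by the median over probes, -0.0038 with centred arrays and 0.042 with Xist as a covariate. The cause of these shifts was not tested. The SD of the ribosomal median of an array, between TAC arrays of a group, was 0.0138. That value is not a spread of the fitted differences. The median deviation of canonical genes from their means over all arrays was -0.0678 in transgenic TAC 1 and -0.0182 in transgenic TAC 2. In wild-type TAC 1 and TAC 2 it was 0.0057 and 0.0201. Of 14 genes with more than 1 probe above the filter, the probes agreed in sign for 7 between genotypes and for 12 between surgeries.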
